A study of Homo sapiens with 56 samples.

Results

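Interferon gamma (IFNG), the IL10-family cytokine genes IL26, IL22, IL10 and IL24, and the receptor chain genes IL10RA, IL10RB, IFNGR1 and IFNGR2 were followed in cutaneous T-cell lymphoma (CTCL) lines exposed to cobomarsen. Cobomarsen (MRG-106) is an oligonucleotide directed against the microRNA miR-155. A probe set was taken when its only gene symbol in the array's annotation was 1 of these 9 genes, which gave 12 probe sets of the 41091 with 1 gene symbol and 9 genes of 19775. Total RNA was measured on 56 Affymetrix arrays, 4 in each of 14 groups. The groups were HuT102, MJ and MY-LA with cobomarsen and untreated at day 4 and at day 8, and HuT78 with cobomarsen and untreated at day 8. The concentration is not given in the sources used here. All controls were untreated wells, and a control oligonucleotide was not analysed here. At 96 hours all wells were split by the dilution that returned the untreated wells to their seeding density. Of the lines, HuT102 and MJ carry HTLV-1, a virus of T cells, and each line stands for 1 patient's tumour cells. Whether the 4 arrays of a group are separate cultures is not stated, and p-values therefore reflect only the spread between these samples, which may be technical.

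Interferon gamma is made by activated T cells and natural killer cells. It binds a receptor of the chains IFNGR1 and IFNGR2, which act through the kinases JAK1 and JAK2. IL10 is a cytokine that restrains immune responses. It binds IL10RA and IL10RB and acts through JAK1, TYK2 and STAT3. IL22, IL26 and IL24 are relatives of IL10 made by T cells, and their receptors sit mainly on epithelial cells. IL22 and IL26 share the chain IL10RB with IL10. In T cells, miR-155 is made after activation, and it is abundant in several lymphomas.

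The mature sequence of the microRNA that cobomarsen is directed against is shown with its seed, bases 2 to 8, in capitals (RefSeq, GRCh38.p14, chr21:25573983-25574006, plus strand).
hsa-miR-155-5p: uUAAUGCUaaucgugauagggguu
IFNG lies at chr12:68154768-68159740, IL26 at chr12:68201349-68225810 and IL22 at chr12:68248242-68253604 in the same build. The gap between IFNG and IL26 is 41.6 kb and that between IL26 and IL22 is 22.4 kb, and 0 genes of the RefSeq table lie wholly within either gap. The 250 bases before the starts of IFNG (chr12:68159741-68159990, minus strand) and IL26 (chr12:68225811-68226060, minus strand) are shown because the signals of these genes moved together, as described below. Both strands were searched for a STAT motif (TTCNNNGAA), an AP-1 motif (TGANTCA), a T-box motif and an NF-kB motif, and the capitals mark the 1 match found, a STAT motif upstream of IFNG.
IFNG upstream: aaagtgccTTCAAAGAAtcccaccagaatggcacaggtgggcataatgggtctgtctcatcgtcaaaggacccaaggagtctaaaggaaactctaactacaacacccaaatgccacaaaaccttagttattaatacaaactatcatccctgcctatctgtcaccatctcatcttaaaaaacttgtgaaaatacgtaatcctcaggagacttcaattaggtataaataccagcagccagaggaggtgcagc
IL26 upstream: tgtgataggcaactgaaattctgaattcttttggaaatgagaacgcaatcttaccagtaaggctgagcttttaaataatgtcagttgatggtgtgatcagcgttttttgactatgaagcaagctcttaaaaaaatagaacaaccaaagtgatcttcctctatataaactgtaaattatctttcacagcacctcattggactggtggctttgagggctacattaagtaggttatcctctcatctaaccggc
Of 35116 upstream windows of this length in the RefSeq table, 6.57% held the STAT motif, 6.57% the AP-1 motif, 0.786% the T-box motif and 0.179% the NF-kB motif. No match says only that these letters are not in these windows. An upstream window of IL22 was not analysed here.

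The values are the authors' MAS5 signal, in which all arrays were scaled to a common level (mean after trimming 2% of values at each end, 500.1 in every array). A signal of 74.0 is the median of all values, and a gene entered a test when its mean log2 value over the arrays of that comparison reached the same median. Changes are differences of log2(signal + 16), which understates changes of low signals, and the ± sign after a log2 change gives its standard error. Tests used limma with the spread pooled over all 14 groups, and a gene was called at an adjusted p under 0.05 over all genes tested. Where a group mean lay under 74.0, signals are given with no fold. The number of arrays limits the precision. Of 11 T cell markers, 7 to 10 had a group mean of at least 74.0, with 9 in every MJ group. CD3D, CD3E, CD3G, CD247 and TRBC1 of the T cell receptor complex were above 74.0 in every group, while CD2 was below it in HuT78, CD5 in MY-LA, and CD4 in 3 of the 4 MY-LA groups. The genes named here as below it are not all of those below it. Of 11 markers of other blood cells, 3 to 6 had a group mean of at least 74.0, their summed signal ran from 736 to 1380 over all arrays, and CD14, CD8B, KLRF1 and LYZ were under 74.0 in every group. The probe set of the miR-155 host transcript (MIR155HG) averaged 36.2 ± 20.1 in HuT78 with cobomarsen and 29.9 ± 7.72 in untreated HuT78 (SD, n = 4 each), and 10496 to 32332 on the arrays of the other lines. It does not measure the mature microRNA that the inhibitor binds.

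The sample numbers in the titles fall in a run for HuT102 and MJ and another for MY-LA and HuT78. A difference between lines of different runs therefore cannot be told apart from one between the runs, while every comparison of cobomarsen with untreated lies within a run.

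IFNG fell in MJ with cobomarsen and was not called in HuT102 or HuT78. Its signal in MJ at day 4 was 203, 166, 264 and 293 with cobomarsen, against 1788, 1522, 1583 and 1755 in untreated cells. The groups were far apart, and the log2 change was -2.79 ± 0.22, or 6.92-fold lower (limma adjusted p = 5.92e-15). At day 8 it was 226, 150, 144 and 133 with cobomarsen, against 4056, 3184, 3413 and 3330 in untreated cells. The change there was -4.31 ± 0.22, or 19.9-fold lower (limma adjusted p = 2.00e-22), and the highest array with cobomarsen stayed well under the lowest untreated array. With quantile normalization, leaving out any 1 array and the other settings tried, the change ranged from -2.91 to -2.57 at day 4 and from -4.49 to -3.98 at day 8, and it was called in 16 of 16 settings at each day. In bulk samples, fewer cells that make a transcript and less of it per cell cannot be told apart.

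In HuT102 at day 4, IFNG read 4341, 3939, 3697 and 3578 with cobomarsen, against 4562, 5168, 5046 and 4406 in untreated cells. The groups did not overlap, but the difference was small, with a log2 change of -0.30 ± 0.22 (limma adjusted p = 0.366). When only the HuT102 arrays set the spread, the same change was called (limma adjusted p = 0.0164). At day 8 in that line it read 5593, 6674, 6446 and 5336 with cobomarsen, against 4994, 5136, 5017 and 6326 in untreated cells, and the groups overlapped (0.16 ± 0.22, limma adjusted p = 0.603). In HuT78 at day 8 it read 179, 213, 258 and 176 with cobomarsen, against 145, 180, 236 and 147 in untreated cells. These groups overlapped as well (0.21 ± 0.22, limma adjusted p = 0.552). In MY-LA it was low throughout, at 31.4 to 54.9 with cobomarsen and 4.55 to 56.9 untreated at day 4, and 31.3 to 43.7 with cobomarsen and 3.43 to 33.5 untreated at day 8.

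IL26, the neighbour of IFNG, had a similar order of levels. In MJ at day 4 it read 69.95, 68.9, 43.9 and 124 with cobomarsen, against 228, 224, 248 and 357 in untreated cells (log2 change -1.64 ± 0.25, 3.12-fold lower, limma adjusted p = 4.23e-07). Its day 8 values were 75.9, 37.7, 66.1 and 40.3 with cobomarsen, against 704, 619, 638 and 755 in untreated cells (limma adjusted p = 2.20e-16). The groups did not overlap at either day. At day 8 the cobomarsen mean was under the median signal, so IL26 passed the filter there through its untreated group alone and no fold is given. At day 4 the mean signal with cobomarsen was 76.7, but its mean log2 value of 6.47 was under the median of 6.49. IL26 therefore passed the filter through its untreated group at that day as well.

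In HuT102 at day 4, IL26 read 1901, 1410, 1331 and 1393 with cobomarsen, against 1463, 2109, 1742 and 1664 in untreated cells, with overlap (-0.21 ± 0.25, limma adjusted p = 0.608). At day 8 it read 3355, 2987, 3251 and 2642 with cobomarsen, against 1521, 2278, 2474 and 2492 in untreated cells. There every array with cobomarsen was above every untreated array, in the opposite direction to MJ (0.50 ± 0.25, limma adjusted p = 0.101). The call changed with the setting, since log2(value + 64) gave a limma adjusted p of 0.00644 and the HuT102 arrays alone gave 0.00814. IL26 was below the median signal in all HuT78 and MY-LA groups, at 3.52 to 37.4 with cobomarsen and 26.1 to 42.1 untreated in HuT78, and at no more than 16.3 on any MY-LA array.

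**Figure D1:**
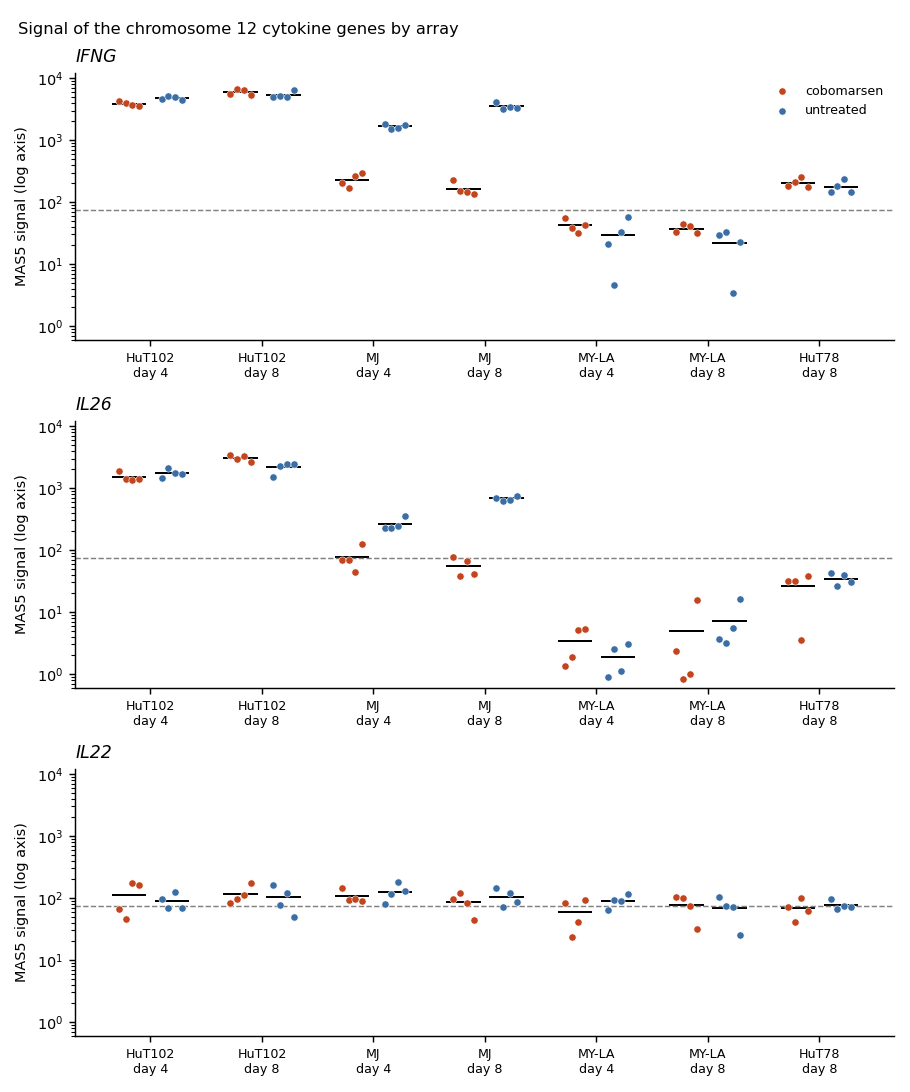
MAS5 signal (log axis) of IFNG, IL26 and IL22 on every array, by line and day, with cobomarsen in red on the left of each pair and untreated in blue on the right; black bars are means of 4 arrays and the dashed line is the median of all values, 74.0. In MJ, IFNG had means of 231 and 163 with cobomarsen at days 4 and 8, below 1662 and 3496 in untreated cells, and IL26 followed the same pattern while IL22 stayed near the dashed line in every group.

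IL22, the remaining gene of the cluster, was near the median signal everywhere. The probe set used had group means from 60.2 (MY-LA day 4 with cobomarsen) to 127 (MJ day 4 untreated), and a second probe set from 6.70 to 48.0. Its values in MJ at day 8 were 95.5, 121, 83.6 and 44.6 with cobomarsen, against 144, 70.9, 119 and 85.3 in untreated cells. The groups overlapped, and IL22 was not called in any comparison in which it was tested. Of 7 listed neighbours on chromosome 12, from CAND1 and DYRK2 on one side to MDM1, RAP1B, NUP107, SLC35E3 and MDM2 on the other, 0 were called higher and 1 lower in MJ at day 8, beside 33.6% of all genes called in either direction (median log2 change 0.01, against -0.02 over all genes tested). That gene was NUP107, a nuclear pore component (-0.42 ± 0.06, limma adjusted p = 9.66e-08). MDM1, the nearest of them, 41.0 kb from IL22, was not called in MJ at day 8. In MJ at day 4, 1 of the 7 was called higher and 2 lower, beside 27.2% of all genes. At day 8 in the other lines, 3 of the 7 were higher and 2 lower in HuT102, beside 40.1%, 4 were higher and 1 lower in MY-LA, beside 41.7%, and 1 was higher and 1 lower in HuT78, beside 22.0%.

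In untreated MJ cells IFNG was higher at day 8 than at day 4, at 3496 ± 385 against 1662 ± 129 (SD, n = 4; log2 change 1.06 ± 0.22, limma adjusted p = 0.00352). IL26 behaved alike, at 679 ± 62.2 at day 8 against 264 ± 62.5 at day 4 (1.33 ± 0.25, limma adjusted p = 0.000961). These were 2 of the 7 genes of the set tested, beside 1.61% of all genes. With log2(value + 1), 0 of the set were called by limma in this comparison. With cobomarsen, IFNG in MJ stood at 163 at day 8 and 231 at day 4 (-0.46 ± 0.22, limma adjusted p = 0.262). The MJ changes with cobomarsen at the 2 days differed for IFNG, by -1.52 ± 0.31 for day 8 minus day 4 (limma adjusted p = 0.00389), and for IL26 (limma adjusted p = 0.00389), whose day 8 mean with cobomarsen was under the median signal. These too were 2 of 7, beside 1.35% of all genes, and with log2(value + 1) they had limma adjusted p of 0.216 and 0.317. In HuT102 the cells with cobomarsen had more of both at day 8 than at day 4, by 0.62 ± 0.22 for IFNG (limma adjusted p = 0.0377) and 1.02 ± 0.25 for IL26 (limma adjusted p = 0.00162). Of the 7 genes tested there, 4 were called, beside 20.3% of all genes.

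By mean signal over the 14 groups, IFNG was highest in the 4 HuT102 groups, followed by MJ untreated at day 8, whose arrays overlapped those of HuT102 with cobomarsen at day 4, MJ untreated at day 4, then MJ with cobomarsen and HuT78, and last MY-LA. The arrays of MJ with cobomarsen at either day overlapped those of HuT78. In untreated cells at day 8, HuT102 stood above MJ by 0.62 ± 0.22 for IFNG (limma adjusted p = 0.0150) and by 1.64 ± 0.25 for IL26 (limma adjusted p = 7.45e-08). Between these lines 57.5% of all genes were called, as were 7 of the 8 genes of the set tested. Of 11709 genes ranked by the correlation of their 14 group means with those of IFNG, IL26 was the second (Pearson r = 0.981), after CAMK2D, a calcium/calmodulin-dependent kinase subunit (0.983). FHOD1, DGKG and TTYH2 came next at 0.968 to 0.972. For IL26, IFNG was the first, followed by UCP2, DGKG, ADGRG1 and UBE2B. The points share lines and arrays, and these correlations are a description with no test.

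IL24 was above the median signal in untreated HuT102 cells alone. At day 4 it read 24.1, 51.8, 8.53 and 34.9 with cobomarsen, against 283, 294, 355 and 271 in untreated cells (limma adjusted p = 2.94e-08). At day 8 it read 20.9, 10.6, 50.2 and 8.65 with cobomarsen, against 337, 362, 294 and 299 in untreated cells (limma adjusted p = 3.05e-10). The groups did not overlap, and with cobomarsen the signal was as low as in the other lines. IL24 passed the filter through its untreated groups, so it had to differ once it was tested, and no fold is given. In the 10 groups of the other lines its means ran from 7.18 to 52.0.

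IL10 was above the median signal in HuT78 alone. There it read 200, 256, 201 and 272 with cobomarsen, against 276, 229, 288 and 249 in untreated cells. The groups overlapped (-0.16 ± 0.45, limma adjusted p = 0.850). In the other 12 groups no mean exceeded 43.1, and its highest single array was 90.1 in MJ untreated at day 4. In MJ at day 8, below the filter and not tested, IL10 read 6.10 to 22.9 with cobomarsen and 33.9 to 58.5 in untreated cells. IL10 lies at chr1:206767602-206772494 and IL24 at chr1:206897443-206904139, 125 kb apart, and their signals were above the median in different lines. Of 6 neighbours of IL10 and IL24 tested in HuT102 at day 8, 1 was called higher and 2 lower, a share near the 40.1% of all genes called there. The lower ones were RASSF5, a Ras-association protein of lymphocyte adhesion (-0.67 ± 0.07), and MAPKAPK2, a kinase downstream of p38 (-0.51 ± 0.10; limma adjusted p = 1.55e-11 and 2.75e-05). The genes most like IL10 over the 14 group means were COL6A1, ACTG2, BSPRY, EEIG1 and MMP9 (Pearson r from 0.962 to 0.973). With IL10 above the median signal in HuT78 alone, this ranking largely sets HuT78 against the other lines. It is a description with no test. For IL24 and IL22 the highest correlations were 0.869 with SUV39H2 and 0.884 with DXO.

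**Figure D2:**
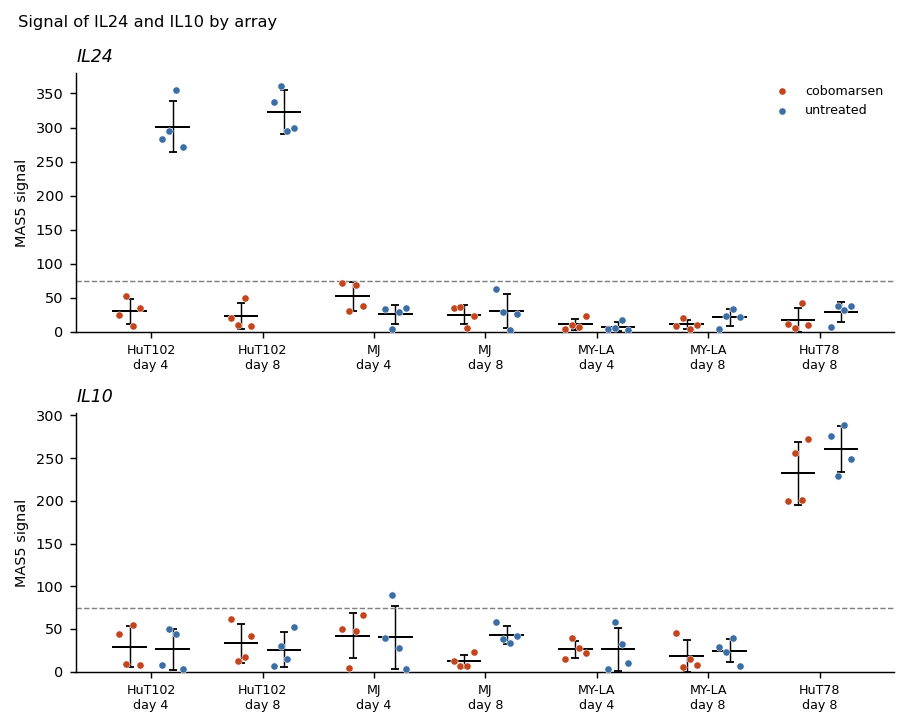
MAS5 signal (linear axis from 0) of IL24 and IL10 on every array, by line and day, with cobomarsen on the left of each pair and untreated on the right; black bars and whiskers are means ± SD of 4 arrays and the dashed line is 74.0. IL24 had means of 29.8 and 22.6 with cobomarsen in HuT102, against 301 and 323 in untreated cells, and IL10 was above the dashed line in both HuT78 groups.

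The other ligands and receptors of the family gave little signal. Of 4 further IL10-family ligands on the array, 0 reached the filter in 6 of the 7 comparisons with cobomarsen, and 1 was tested in HuT78 and not called. Of 5 further receptor chains, which include IL22RA1, IL20RA and IL20RB, 1 was tested, in MJ at day 8, and not called. IL20RA, a chain of the IL26 receptor, had group means from 5.09 to 27.8.

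IFNGR2, the signalling chain of the interferon gamma receptor, rose in HuT102 and fell in MJ and MY-LA. In HuT102 at day 4 it read 772, 689, 948 and 944 with cobomarsen, against 489, 387, 537 and 518 in untreated cells (0.77 ± 0.12, 1.71-fold higher, limma adjusted p = 8.15e-07). At day 8 it read 871, 1149, 808 and 720 with cobomarsen, against 396, 412, 321 and 407 in untreated cells (1.16 ± 0.12, 2.23-fold higher, limma adjusted p = 5.61e-12). All HuT102 arrays with cobomarsen were above all untreated ones of their day.

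In MJ at day 4, IFNGR2 read 2632, 2912, 3245 and 3187 with cobomarsen, against 4748, 2904, 5020 and 4661 in untreated cells (-0.50 ± 0.12, 1.42-fold lower, limma adjusted p = 0.000640). A single untreated array, at 2904, lay among the arrays with cobomarsen, and without it the change was -0.68. In MJ at day 8 it read 2545, 2199, 2711 and 2276 with cobomarsen, against 4845, 5175, 5149 and 4854 in untreated cells, with no overlap (-1.04 ± 0.12, 2.06-fold lower, limma adjusted p = 2.21e-10). In MY-LA at day 4 it read 4337, 4027, 4446 and 4281 with cobomarsen, against 5543, 6126, 5907 and 5130 in untreated cells (-0.41 ± 0.12, limma adjusted p = 0.00676). In MY-LA at day 8 its means were 4076 ± 175 with cobomarsen and 4951 ± 85.1 untreated (SD, n = 4), again with no overlap (-0.28 ± 0.12, limma adjusted p = 0.0486), but the call held in 3 of 16 other settings. In HuT78 the means were 792 ± 75.3 with cobomarsen and 770 ± 49.4 untreated (0.04 ± 0.12, limma adjusted p = 0.866). The change in HuT102 exceeded that in MJ by 2.20 ± 0.17 at day 8 (limma adjusted p = 1.05e-15), and that in MY-LA by 1.44 ± 0.17 (limma adjusted p = 3.73e-10). Untreated HuT102 cells had 384 at day 8, far under untreated MJ cells at 5006 (-3.66 ± 0.12, limma adjusted p = 2.29e-32).

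IFNGR1, the chain that binds the ligand, rose in MY-LA at day 8. In MY-LA at day 8 it read 860, 845, 822 and 941 with cobomarsen, against 640, 563, 617 and 625 in untreated cells (0.49 ± 0.08, 1.41-fold higher, limma adjusted p = 1.14e-06). A second probe set agreed in direction there (0.40 ± 0.10, limma adjusted p = 0.00191). Its HuT102 means at day 8 were 834 ± 47.6 with cobomarsen and 699 ± 20.3 untreated (0.25 ± 0.08, limma adjusted p = 0.00963), but the second probe set was not called (-0.06 ± 0.10, limma adjusted p = 0.697). Its MJ means at day 4 were 1011 ± 55.0 with cobomarsen and 1194 ± 103 untreated (-0.23 ± 0.08, limma adjusted p = 0.0219). That call was lost without cobomarsen array 2 or untreated array 4 (-0.20 and -0.18, limma adjusted p = 0.0922 and 0.114), and the second probe set was not called (-0.21 ± 0.10, limma adjusted p = 0.149). Another probe set for IFNGR1 had group means of 33.4 to 106. In HuT102 the change at day 8 exceeded that at day 4 by 0.41 ± 0.11 (limma adjusted p = 0.0140), the 1 gene of 8 tested that was called there, beside 7.20% of all genes. The second probe set showed no such difference between days in HuT102. Its means were 466 ± 45.5 with cobomarsen and 478 ± 50.7 untreated at day 4 (SD, n = 4). At day 8 they were 524 ± 61.7 with cobomarsen and 546 ± 51.7 untreated.

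IL10RA, the ligand-binding chain of the IL10 receptor, fell in HuT102. At day 4 it read 3927, 4374, 4634 and 4391 with cobomarsen, against 5412, 5105, 5539 and 5745 in untreated cells (-0.33 ± 0.06, limma adjusted p = 7.13e-05). At day 8 it read 4991, 4985, 4453 and 5036 with cobomarsen, against 7861, 7221, 7348 and 7068 in untreated cells (-0.60 ± 0.06, 1.51-fold lower, limma adjusted p = 3.78e-11). The groups were apart at both days. In untreated HuT102 cells it was higher at day 8 than at day 4 (0.44 ± 0.06, limma adjusted p = 2.50e-06), the 1 gene of 8 tested that was called, beside 8.70% of all genes.

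In HuT78, IL10RA read 1971, 1824, 1999 and 1720 with cobomarsen, against 2183, 2316, 2340 and 2377 in untreated cells, with no overlap (-0.29 ± 0.06, limma adjusted p = 0.00119). The call was lost when only the HuT78 arrays set the spread (limma adjusted p = 0.145). Smaller falls in MJ at day 4 (3712 ± 53.9 with cobomarsen and 4170 ± 195 untreated, -0.17 ± 0.06, limma adjusted p = 0.0478) and MY-LA at day 8 (7194 ± 678 with cobomarsen and 8029 ± 612 untreated, -0.16 ± 0.06, limma adjusted p = 0.0400) held in 4 and 8 of 16 other settings. The change in HuT102 at day 8 was larger than that in MJ (difference -0.54 ± 0.09, limma adjusted p = 5.86e-06) and that in MY-LA (-0.44 ± 0.09, limma adjusted p = 9.07e-05). In MY-LA IL10RA was lower at day 8 than at day 4 both with cobomarsen (-0.36 ± 0.06, limma adjusted p = 1.99e-05) and in untreated cells (-0.22 ± 0.06, limma adjusted p = 0.0165). In those comparisons 3 of 4 and 1 of 5 genes of the set were called, beside 30.2% and 13.1% of all genes.

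IL10RB, the chain shared by the receptors for IL10, IL22 and IL26, fell in MY-LA at day 8. It read 549, 553, 560 and 606 with cobomarsen, against 867, 896, 912 and 963 in untreated cells (-0.67 ± 0.09, 1.59-fold lower, limma adjusted p = 7.68e-08). At day 4 in the same line it was 877 ± 68.6 with cobomarsen and 802 ± 50.5 untreated, and the changes at the 2 days differed by -0.79 ± 0.13 (limma adjusted p = 3.08e-05). In this comparison IFNGR1 was called too (0.34 ± 0.11, limma adjusted p = 0.0315, lost without the filter, with quantile normalization and with the MY-LA arrays alone), which made 2 of 4 genes tested, beside 17.0% of all genes. Between cobomarsen and untreated cells IL10RB was not called in HuT102, MJ or HuT78, where its group means lay between 830 and 1122. It was called under 4 other settings in HuT102 at day 4 (0.24 to 0.33), 2 in HuT78 (-0.29 and -0.28) and 1 in MJ at day 8 (-0.23). In HuT102 with cobomarsen it was lower at day 8 than at day 4 (-0.29 ± 0.09, limma adjusted p = 0.0255). Untreated MY-LA cells had less IFNGR1 than untreated HuT78 cells (-1.35 ± 0.08, limma adjusted p = 1.44e-21) and more IL10RA and IFNGR2, by 1.79 ± 0.06 and 2.66 ± 0.12 (limma adjusted p = 8.68e-31 and 6.49e-27). All 5 genes of the set tested between these lines were called, beside 74.8% of all genes.

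**Figure D3:**
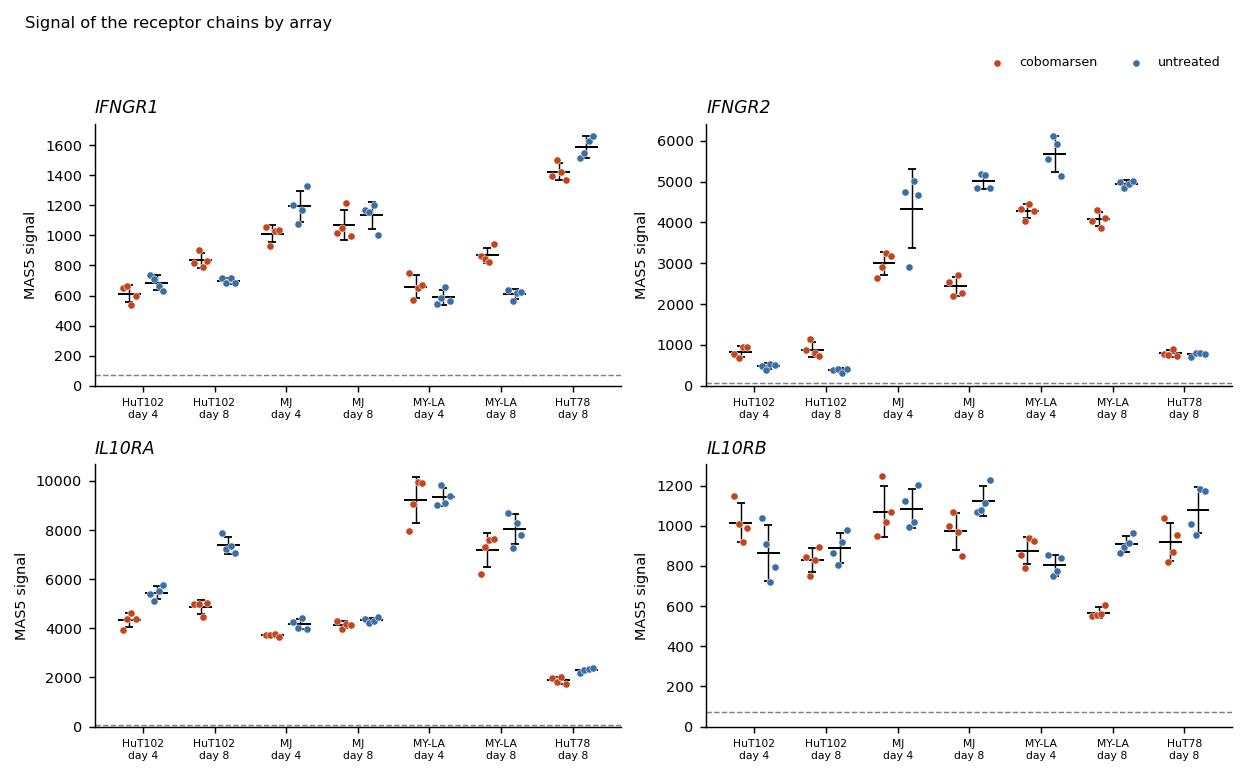
MAS5 signal (linear axes from 0) of IFNGR1, IFNGR2, IL10RA and IL10RB on every array, by line and day, with cobomarsen on the left of each pair and untreated on the right; black bars and whiskers are means ± SD of 4 arrays and the dashed line is 74.0. IFNGR2 had a mean of 887 with cobomarsen and 384 untreated in HuT102 at day 8, and of 2433 with cobomarsen and 5006 untreated in MJ at day 8.

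By comparison, of the 9 genes 8 were tested in HuT102 at day 4 and 3 were called (1 higher, 2 lower), beside 23.0% of all genes. At day 8 in HuT102 4 of 8 were called (2 higher, 2 lower), beside 40.1%. In MJ 5 of 7 were called at day 4, all lower, beside 27.2%, and 3 of 7 at day 8, all lower, beside 33.6%. In MY-LA 1 of 4 was called at day 4, beside 26.3%, and 4 of 4 at day 8 (1 higher, 3 lower), beside 41.7%. In HuT78 1 of 6 was called, beside 22.0%. These counts include IL24 in HuT102 and IL26 in MJ, both at each day, which passed the filter through their untreated groups. The change at day 8 differed between the 4 lines for 6 of the 7 genes tested (limma moderated F-test, with IL10 and IL24 below the filter and not tested), which are all but IL22, beside 64.7% of all genes. Between HuT102 and MJ it differed for 5 of 7, beside 28.0%, and between HuT102 and MY-LA for 3 of 7, beside 38.8%. For IFNG the difference of HuT102 minus MJ was 4.48 ± 0.31 (limma adjusted p = 7.91e-17).

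**Figure D4:**
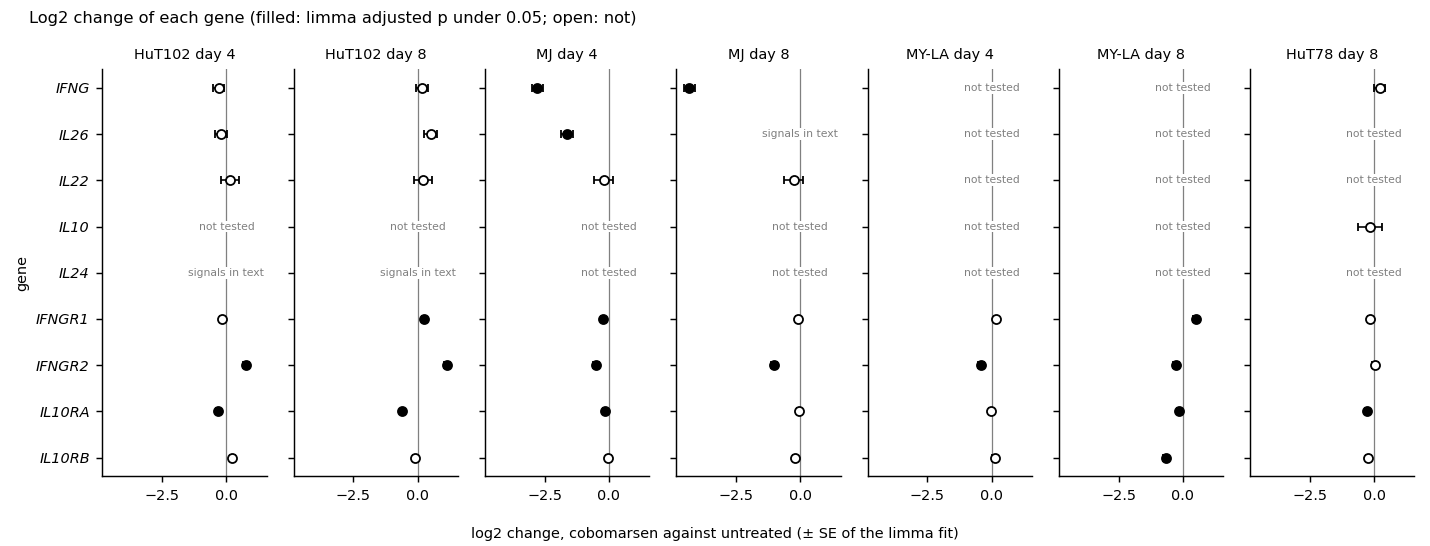
Log2 change of each of the 9 genes (vertical axis) with cobomarsen against untreated (horizontal axis, whiskers ± SE), a panel for each line and day; filled points have a limma adjusted p under 0.05, and genes with a group mean under 74.0 or not tested are marked in words. IFNG stands at -2.79 and -4.31 in MJ, and IFNGR2 is to the right of 0 in HuT102 and to the left in MJ and MY-LA.

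Several markers also changed in MJ, most of them higher, while IFNG and IL26 fell. The summed signal of 11 T cell markers was 59992 to 66342 with cobomarsen and 46342 to 52938 untreated at day 4, and 54499 to 59279 with cobomarsen and 44463 to 48060 untreated at day 8. Of 9 T cell markers tested, 4 were called higher and 1 lower at each day, beside 27.2% of all genes at day 4 and 33.6% at day 8. The lower one was TRBC1, at 1172 with cobomarsen and 4885 untreated at day 8. Of the markers of other blood cells, 0 of 5 tested were called at day 4 and 2 of 4 were higher at day 8, NCR1 and CSF1R. Their summed signal was 1045 to 1282 with cobomarsen and 918 to 1017 untreated at day 8. NCR1, a receptor of natural killer cells, read 189 with cobomarsen and 61.9 untreated at day 8, while KLRF1 stayed under 74.0. NCR1 passed the filter through its group with cobomarsen alone, so its call was partly set by the filter. The upper quartile of the signal in MJ was 446 to 454 with cobomarsen and 425 to 437 untreated at day 8. In HuT102 at day 8 it was 439 to 466 with cobomarsen and 419 to 429 untreated. The summed T cell markers were also higher in HuT102 at day 4 (58484 to 66142 with cobomarsen, 52350 to 58337 untreated). The same held in MY-LA at day 4 (57301 to 67356 with cobomarsen, 49203 to 56105 untreated). At day 8 these sums overlapped in HuT102, MY-LA and HuT78. The part of these differences in the results was not tested.

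The regulators of IFNG in type 1 T cells include TBX21 (T-bet), the transcription factor that directs these cells, and its relative EOMES. TBX21 fell in MJ, at 412 with cobomarsen and 1423 untreated at day 4 (-1.75 ± 0.26, limma adjusted p = 3.04e-07), and at 360 with cobomarsen and 1993 untreated at day 8 (-2.42 ± 0.26, limma adjusted p = 4.48e-11). HLX, a homeobox factor that acts with T-bet, and IL18R1, a chain of the IL18 receptor, also fell in MJ at day 8 (-0.66 ± 0.16 and -0.73 ± 0.21, limma adjusted p = 0.000569 and 0.00464). Of 11 such genes tested in MJ at day 8, 1 was called higher and 4 lower, beside 33.6% of all genes called (median -0.08, against -0.02 over all genes). Of the 12 in HuT102 at day 8, 5 were higher and 3 lower, beside 40.1% (median 0.06, against 0.00 over all genes). EOMES rose there, at 869 with cobomarsen and 252 untreated (1.72 ± 0.19, limma adjusted p = 1.67e-10), and TBX21 was not called. In MY-LA at day 8, 6 of 9 were higher and 1 lower, beside 41.7% (median 0.26, against 0.02 over all genes), among them HLX (0.85 ± 0.16) and RUNX3 (0.51 ± 0.08; limma adjusted p = 1.24e-05 and 9.11e-07). In HuT78, 0 of 9 were higher and 2 lower (BHLHE40 and RUNX3), a share near the 22.0% of all genes called there.

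A list of regulators and markers of T cells that make IL17, IL22 and IL26 includes IL23R, a chain of the IL23 receptor. IL23R rose in HuT102 at day 4, at 222 with cobomarsen and 87.5 untreated (1.20 ± 0.23, limma adjusted p = 5.90e-05), and fell in MJ at day 8, at 818 with cobomarsen and 1976 untreated (-1.25 ± 0.23, limma adjusted p = 1.46e-05). These values are of unlike days, and the difference between these lines was not tested for IL23R. Of the 10 tested in HuT102 at day 4, 5 were higher and 1 lower, beside 23.0% of all genes called (median 0.39, against -0.03 over all genes). RORA, a nuclear receptor of these cells, rose by 1.69 ± 0.29 and MAF, a transcription factor that drives IL10 in T cells, by 1.14 ± 0.27 (limma adjusted p = 8.68e-06 and 0.00107). Of the 10 tested in HuT102 at day 8, 5 were higher and 2 lower, beside 40.1% (median 0.34). Of the 5 tested in MJ at day 4, 1 was higher and 3 lower, beside 27.2% (median -0.33, against 0.00 over all genes). Of the 8 tested in MJ at day 8, 1 was higher and 2 lower, a share near the 33.6% of all genes.

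Among the kinases and STAT factors of these receptors, STAT3 fell in HuT102, MJ and MY-LA at both days. It was lowest against its control in MJ at day 8, at 2538 with cobomarsen and 7001 untreated (-1.46 ± 0.09, limma adjusted p = 3.22e-19). TYK2 rose in HuT102 at day 8, at 9254 with cobomarsen and 3913 untreated (1.23 ± 0.10, limma adjusted p = 2.66e-15), and fell in HuT78 (-0.49 ± 0.10, limma adjusted p = 0.000638). STAT5A fell in MJ at day 8 (-0.65 ± 0.10) and rose in HuT102 at day 8 (0.59 ± 0.10; limma adjusted p = 2.77e-07 and 1.61e-06). Of 6 such genes in MJ at day 8, 1 was higher and 2 lower, beside 33.6% of all genes called (median 0.18, against -0.02 over all genes). Of the 6 in HuT102 at day 8, 3 were higher and 1 lower, beside 40.1% (median 0.34, against 0.00 over all genes).

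Of 8 feedback inhibitors, CISH fell in all 7 comparisons, from -0.67 ± 0.12 in HuT78 to -0.43 ± 0.12 in MJ at day 8 (limma adjusted p = 0.000224 and 0.00443). SOCS3, an inhibitor induced by STAT3, fell in HuT102 at day 8, at 344 with cobomarsen and 1276 untreated (-1.85 ± 0.17, limma adjusted p = 1.70e-13), and in MJ at day 8 (-0.94 ± 0.17, limma adjusted p = 8.63e-06). It rose in MY-LA at day 8, at 2872 with cobomarsen and 1484 untreated (0.94 ± 0.17, limma adjusted p = 6.22e-06). SOCS1, a described target of miR-155, rose in MJ at day 8 (0.52 ± 0.17, limma adjusted p = 0.0155). Of the 12 IL10 and STAT3 response genes, 1 was higher and 6 lower in MJ at day 8, beside 33.6% of all genes called (median -0.66, against -0.02 over all genes). PIM1, a kinase induced by cytokines, and the repressor BCL6 fell there (-1.76 ± 0.11 and -1.20 ± 0.17, limma adjusted p = 1.75e-18 and 6.68e-08). In HuT102 at day 8, 3 of 12 response genes were higher and 4 lower, beside 40.1% (median -0.13). In MY-LA at day 8, 5 of 11 were higher and 5 lower, beside 41.7% (median -0.0046). In HuT78, 0 of 10 were higher and 2 lower, beside 22.0% (median -0.21).

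Interferon gamma response genes went both ways in MJ. At day 8, 5 of 23 were called higher and 9 lower, beside 33.6% of all genes called (median -0.16, against -0.02 over all genes). CIITA, the activator of HLA class II genes, rose, at 737 with cobomarsen and 217 untreated (1.70 ± 0.18, limma adjusted p = 1.89e-11). The guanylate-binding proteins GBP2 and GBP1 fell (-1.12 ± 0.19 and -0.77 ± 0.19, limma adjusted p = 4.86e-06 and 0.00123), as did PSMB9, an immunoproteasome subunit (-0.72 ± 0.07, limma adjusted p = 1.87e-11). In HuT102 at day 8, where IFNG was not called, 6 of 24 were higher and 12 lower, beside 40.1% (median -0.23, against 0.00 over all genes), with CIITA higher (2.34 ± 0.18) and the chemokine CXCL11 lower (-1.28 ± 0.24; limma adjusted p = 3.44e-16 and 1.55e-05). In MY-LA at day 8, where IFNG was near background, 4 of 18 were higher and 6 lower, beside 41.7% of all genes called. In HuT78, 4 of 20 were higher and 2 lower, beside 22.0%.

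**Figure D5:**
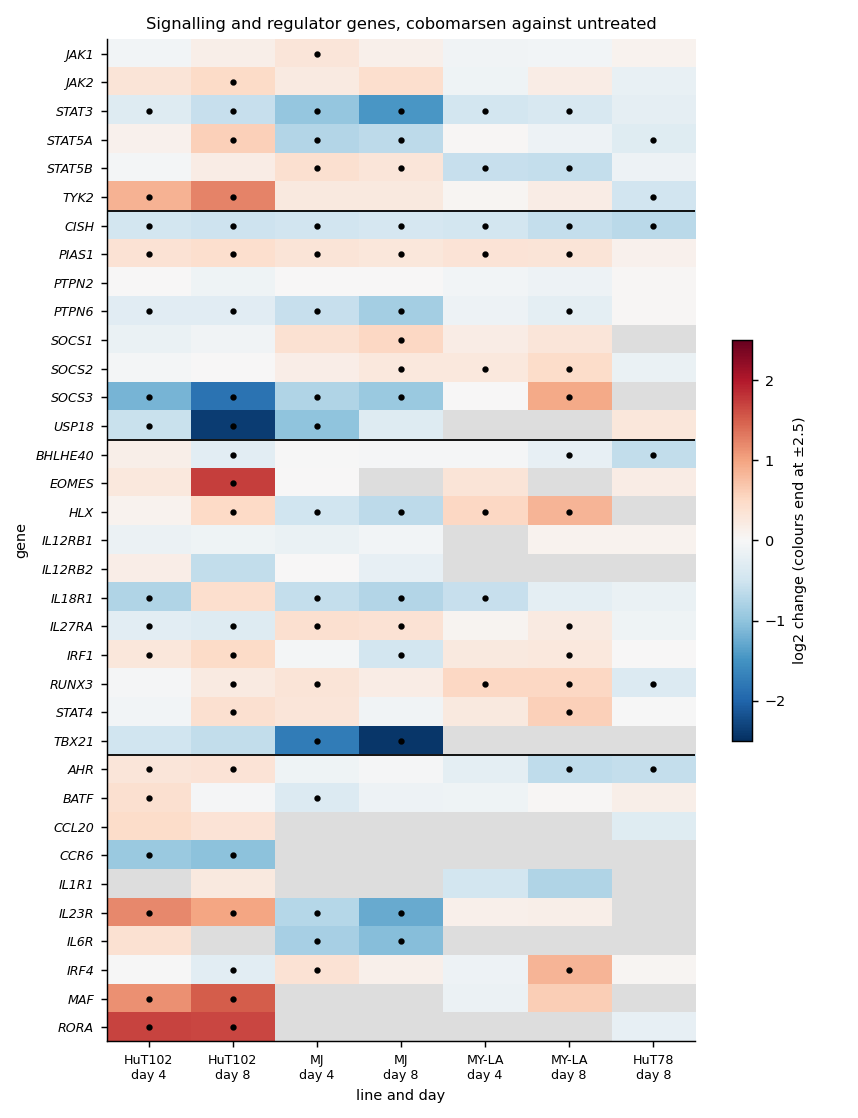
Log2 change with cobomarsen against untreated (colour, red higher, blue lower) of signalling and regulator genes (rows) in each line and day (columns); black dots mark a limma adjusted p under 0.05 and grey cells a group mean under 74.0 or no test. Lines divide kinases and STAT factors, feedback inhibitors, regulators of IFNG, and regulators of cells making IL17 and IL22, and TBX21 stands at -1.75 and -2.42 in MJ.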

How the data were processed

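Total RNA was labelled with biotin and hybridized, per the labels' protocols. Per the submitters' processing notes, the authors computed the deposited signal intensity with MAS5, whose version is not given in the sources used here. The values are linear. The table gives no detection calls. Of 54675 probe sets, 41091 had 1 gene symbol in the array's annotation, 1801 several, 11721 none and 62 were controls. Only those with 1 symbol were used, and each gene was read from its probe set with the highest mean of log2(value + 16) over the 56 arrays. No symbol needed an update through its gene ID.

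The labels give each array's line, day and treatment. One limma model (limma 3.58.1, R 4.3.3) took all 56 arrays and 14 group means, with 42 residual degrees of freedom and a median of 8.47 prior degrees of freedom from variances moderated along the signal, and every contrast was tested two-sided at 0.05, after adjustment by Benjamini-Hochberg across its genes. Differences between lines at day 8 were fitted for 6 pairs. Python 3.11.15 with pandas 2.3.3, NumPy 2.4.6, SciPy 1.17.1 and Matplotlib 3.10.9 did the rest.

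The 9 genes and the pathway lists were chosen with earlier results of these data known. Named were all probe sets of the 9 genes, up to 4 called genes of each list and comparison with the largest change, the 5 genes most like each cytokine, and the miR-155 host transcript. MDM1, KLRF1, IL20RA, IL20RB, IL22RA1, CD2, CD4 and CD5 were named after their values were seen.

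Alternatives were log2(value + 1), log2(value + 64), quantile normalization, no filter, a stricter filter (75th percentile of all values), no variance trend, only the arrays of the line, each probe set on its own, leaving out each array, and an exact permutation of 4 against 4 arrays. Tested on simulated data modelled on MJ at day 8 (11941 genes), the fit recovered 53.7% of 95 seeded changes of size 0.5 and 85.1% of 94 of size 1 (log2), called 8 unchanged genes and gave 0 wrong signs. Only the seeded genes changed in that simulated comparison, while 33.6% of all genes were called in the data. The recovery therefore need not hold for the real comparison.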

Additional observations from a re-analysis of the deposited data

Results flagged for a closer look

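The change with cobomarsen at day 8 differed between the 4 lines (limma moderated F-test) for IFNG (adjusted p = 1.04e-19), IL26 (2.58e-13), IL10RA (8.09e-06), IL10RB (0.00120), IFNGR1 (3.27e-06) and IFNGR2 (4.34e-15). Both IFNG and IL26 had means under 74.0 in every MY-LA group, and IL26 in both HuT78 groups.

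The changes of day 8 and day 4 differed by -1.52 for IFNG in MJ, -1.69 for IL26 in MJ, -0.79 for IL10RB in MY-LA, 0.41 for IFNGR1 in HuT102 and 0.34 for IFNGR1 in MY-LA, on the log2 scale (limma adjusted p = 0.00389, 0.00389, 3.08e-05, 0.0140 and 0.0315). The value for IL26 rests on a group mean of 55.0 with cobomarsen at day 8, under 74.0, and its size moves with the number added before the logarithm. With log2(value + 1), neither IFNG nor IL26 was called in MJ (limma adjusted p = 0.216 and 0.317). The value for IFNGR1 in HuT102 comes from the probe set used, and the second probe set showed no such difference.

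In 5 of the 88 pairs of gene and group examined, 1 array lay far from the other 3. By chance about 1 in 20 such groups would hold one. They were the highest arrays for IFNG in untreated HuT102 at day 8 (6326), IL26 in HuT102 with cobomarsen at day 4 (1901) and IL22 in MJ with cobomarsen at day 4 (145). The lowest arrays were those for IL10RA in HuT102 with cobomarsen at day 8 (4453) and IFNGR2 in untreated MJ at day 4 (2904).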

How the results depend on the processing

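No paired analysis was possible because the labels give no replicate numbers that groups share (each title ends in a number of its own). Of 342 values of single genes with cobomarsen against untreated under the other settings of the fit, 321 kept their side of the threshold, 15 lost and 6 gained a call. Of 352 with 1 array left out, 326 kept it, 21 lost and 5 gained a call. The sign turned in 10 of these 694 values, 9 of them with 1 array left out and 1 with quantile normalization, for IL22 in HuT102 at both days, IL10 and IFNGR2 in HuT78, IL10RA in MY-LA at day 4 and IL10RB in MJ at day 4. None of the 10 was called before or after, and the largest was 0.0989 in size. The exact permutation of 4 against 4 arrays cannot go below p = 0.0286. Over the pairs tested here its lowest adjusted p was 0.0571, so it made no call and says nothing about stability.

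Counts of the 9 genes that moved by over 1.5 times were as follows, and the cause was not tested. With log2(value + 1), HuT102 with cobomarsen at day 8 against day 4 had 2, and the MJ difference between days and untreated MJ at day 8 against day 4 had 0 each. The HuT102 difference between days had 2 with log2(value + 64), 2 with the 75th percentile filter and 3 with its own arrays alone. The 75th percentile filter left 1 for the MJ difference and 1 for untreated MJ. Its own arrays alone gave 0 for HuT78 and 1 for MJ with cobomarsen at day 8 against day 4. MY-LA at day 8 had 2 without the filter, with quantile normalization and without the trend, and its difference between days had 1 without the filter, with quantile normalization and with its own arrays.

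Leaving out 1 array gave 2 to 4 for HuT102 with cobomarsen at day 8 against day 4, 1 to 2 for the HuT102 difference, 1 to 2 for untreated HuT102, 1 to 2 for the MY-LA difference, 0 to 1 for untreated MY-LA, 1 to 2 for HuT78, 3 to 4 for MJ at day 4, 1 to 2 for MY-LA at day 4 and 2 to 3 for MY-LA at day 8. Genes near 74.0 in signal had little precision.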
